A study of Mus musculus with 2 samples.

Results

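Mir139 is the gene of the microRNA miR-139, a short RNA that guides Argonaute proteins to messenger RNAs matching its seed. It was picked by its GENCODE M21 identifier, ENSMUSG00000065446.1, and is 1 of 2202 annotated miRNA genes counted in the adrenal gland. The tissue came from male B6CASTF1/J mice aged 2 months, first-generation hybrids of a laboratory strain and a castaneus strain. One group of 2 libraries was made from total RNA of the whole gland, with an RNA size range under 30 nt. Replicate 1 came from animal 3 and replicate 2 from animal 4. The labels give them as biological replicates of an RNA evaluation and describe no treatment, mutation or second tissue. The questions the data answer for Mir139 are therefore what share of the counted miRNA reads it took and how far the libraries of 2 animals differed.

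The miRNA sits inside Pde2a, which encodes a phosphodiesterase that degrades cyclic AMP and cyclic GMP and is stimulated by cyclic GMP. In bovine glomerulosa cells, the aldosterone-producing cells of the outer cortex, this enzyme is known from the pathway by which atrial natriuretic peptide lowers cyclic AMP and aldosterone output. A miRNA in an intron can be cut from the transcript of its host by the microprocessor complex, so host and miRNA can share a promoter. In human tumours miR-139-5p is best known as a product that is often low in carcinomas. Pde2a messenger RNA was not measured in these libraries, which hold small RNA.

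Mir139 encodes a hairpin of 68 bases on the plus strand at chr7:101475376-101475443 (mm10), with a mature product on each arm. The sequences are shown because the counts were made per hairpin, and they define what a counted read could be. RefSeq sequences for GRCm38.p6, the assembly of mm10, are written 5′ to 3′. Capitals mark the mature products in the hairpin and the seed, bases 2 to 8, in each mature product.
Mir139 hairpin: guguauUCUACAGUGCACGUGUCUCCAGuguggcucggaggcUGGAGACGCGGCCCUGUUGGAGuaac
mmu-miR-139-5p: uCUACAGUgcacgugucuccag
mmu-miR-139-3p: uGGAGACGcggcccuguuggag

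The 5p product fills bases 7 to 28 of the hairpin (chr7:101475382-101475403) and the 3p product bases 43 to 64 (chr7:101475418-101475439). Both are 22 bases long, and 14 bases lie between them. The 3p arm is richer in G and C, at 68.2% against 54.5% for the 5p arm. Folded with RNAfold, the hairpin formed 25 base pairs, 4 of them G-U, with a minimum free energy of -35.6 kcal/mol. Of the 22 bases of each product, 20 were paired, and 19 pairs joined the products to each other. Per base the predicted energy was -0.52 kcal/mol, against a median of -0.41 over 1005 RefSeq hairpins of the mouse, and 87.9% of these were less stable by this measure. The hairpin is also shorter than the median of 79 bases. The files give 1 count per gene, so reads of miR-139-5p and of miR-139-3p cannot be told apart.

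Neither seed of Mir139 had a full partner among the other mouse miRNAs. None of 1677 other RefSeq mature names carries the 7 bases of the 5p seed, CUACAGU, or of the 3p seed, GGAGACG. The paired site in a target reads ACUGUAG for the 5p seed and CGUCUCC for the 3p seed. One product, miR-6397, shares bases 2 to 7 with miR-139-3p, and the seed, in capitals, parts from it at base 8.
mmu-miR-6397: uGGAGACUuucaguggaguga
Its gene Mir6397, on chromosome 4 at chr4:108087357-108087449, had 0 counts in replicate 1 and 0 in replicate 2.

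Both mature sequences were unique within the annotation, which bears on how complete the count is. Reads that aligned to several places were not counted at genes, 26.2% of all reads in replicate 1 and 28.8% in replicate 2. Each product of Mir139 was found as an exact match in 1 gene, Mir139 itself, among 141767 GENCODE transcripts. The closest stretch in any other hairpin differed by 6 bases, in Mir3097 for the 5p and in Mir7020 for the 3p product. The rest of the genome was not searched, so losses to unannotated copies were not tested. Other miRNA genes with identical copies can lose reads, and the total at miRNA genes leaves those reads out. The share and rank of Mir139 given below therefore hold among counted reads. Among all miRNA reads they can be too high, by an amount that was not tested.

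Within Pde2a, Mir139 lies in an intron in every transcript that spans it. The host extends over 91137 bases on the plus strand (chr7:101421691-101512827), and the hairpin begins 53685 bases after its annotated start. Of 12 annotated Pde2a transcripts 10 span the hairpin, and in none of these does it overlap an exon. In the 4 transcripts annotated as protein-coding it is in intron 2, which runs over 29902 bases (chr7:101451469-101481370) and is also the intron of 1 retained-intron transcript. In another 4 transcripts the intron is 19829 bases long, and 1 has an intron of 28937 bases. All of these introns end at the same exon, which begins after a gap of 5927 bases downstream of the hairpin. A second protein-coding locus of the strand, Gm45837 (chr7:101410886-101512819), overlaps Pde2a and also has Mir139 in an intron.

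**Figure D1:**
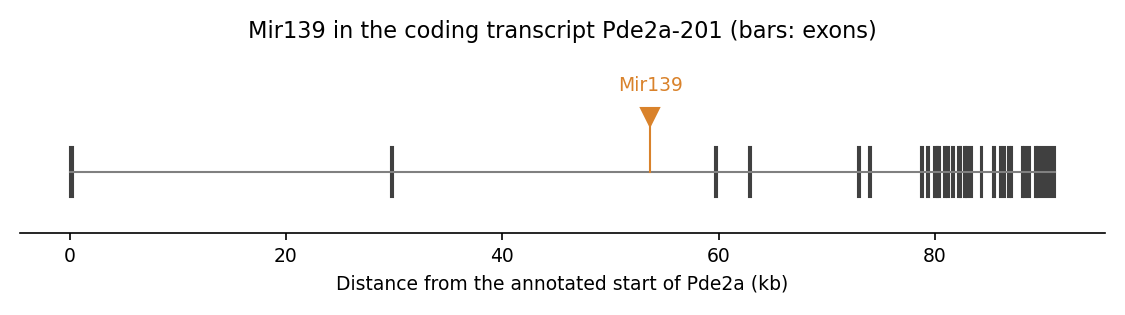
Map of the coding transcript Pde2a-201, with distance from the annotated start of Pde2a in kilobases on the x axis; dark bars are exons, the grey line marks introns and the orange triangle marks Mir139. The miRNA lies in intron 2, 23907 bases after exon 2 and 5927 bases before the next exon.

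Mir139 was one of the 12 miRNA genes with the most counts in both glands. Replicate 1 had 150988 reads at Mir139 and replicate 2 had 122088. As a share of all counts at miRNA genes this was 2.62% in replicate 1, with an exact Clopper-Pearson interval of 2.61 to 2.64 at 95%. The share reached 3.66% in replicate 2, where the interval ran from 3.64 to 3.68. The intervals did not overlap, so the libraries differed by more than the counting error of independent reads. The intervals cover only that error. The reads carried no stated molecular identifiers and are not independent molecules. The mean share was 3.14% ± 0.734 (SD, n = 2), or 31438 ± 7340 CPM, the same share scaled to 1e6. Replicate 1 stood at 26248 CPM and replicate 2 at 36628 CPM. About 1 in 38.1 counts of replicate 1 and 1 in 27.3 counts of replicate 2 thus came from this gene. The depth behind these shares was 5752428 counts at miRNA genes in replicate 1 and 3333149 in replicate 2, out of 17000342 and 10752051 reads.

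Every counted read of Mir139 was in the column taken as the strand of the gene. The 3 count columns carry no header, and their roles were inferred from their totals. The column taken as the opposite strand had 0 reads in replicate 1, which allows a share of up to 0.00199% of the reads at the gene, and 0 in replicate 2, which allows up to 0.00246%. The column taken as counted without regard to strand held the same 150988 and 122088 reads in replicates 1 and 2.

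By CPM Mir139 ranked 12 in replicate 1, 9 in replicate 2 and 12 by the mean of both. It stood above 99.5% of the 2202 genes, of which 372 reached 2 CPM in both libraries. The genes above it together took 62.7% of the replicate 1 counts and 49.3% of those of replicate 2. Of the 11 genes above it in replicate 1, 8 were also above it in replicate 2. The other 3, Mir10a, Mir143 and Mirlet7d, were passed by Mir139 in replicate 2, and no gene was above it in replicate 2 only. The most abundant gene, Mirlet7g of the let-7 family, exceeded Mir139 4.33-fold in replicate 1 and 3.17-fold in replicate 2.

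**Figure D2:**
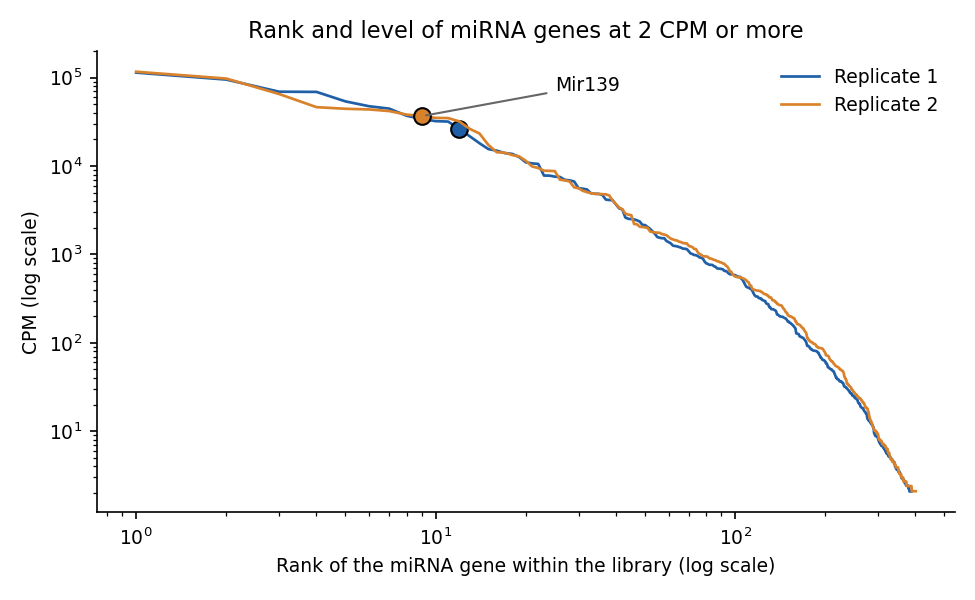
CPM (y axis, log scale) against rank within the library (x axis, log scale) for the miRNA genes at 2 CPM or more, with replicate 1 in blue and replicate 2 in orange; circles mark Mir139. Mir139 sits on the shoulder of both curves, at rank 12 and 26248 CPM in replicate 1 and at rank 9 and 36628 CPM in replicate 2.

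Mir139 was separated in level from the 3 genes below it but not from the 3 above it. A neighbour was called separated when the difference in log2 counts had the same sign in both libraries and its mean exceeded its SD over both. Mir143, a miRNA of smooth muscle, stood above Mir139 in replicate 1 with 31774 CPM and below it in replicate 2 with 31884 CPM. The log2 difference of Mir139 over Mir143 averaged -0.04 ± 0.34 (SD, n = 2). Mir10a, which lies among the Hox genes, had 32113 and 34961 CPM in replicates 1 and 2, and the difference of -0.11 ± 0.25 also changed sign between the animals. Mir23b, at 33985 and 38091 CPM in replicates 1 and 2, was above Mir139 in both, but the difference of -0.21 ± 0.22 was no larger than its SD.

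Below Mir139 the gap was wider. Mir26b, in an intron of the phosphatase gene Ctdsp1, reached 15508 CPM in replicate 1 but 26258 CPM in replicate 2, and Mir139 exceeded it by 0.62 ± 0.20 on the log2 scale (SD, n = 2). For Mir127, an imprinted miRNA of the Dlk1-Dio3 region, the values of replicates 1 and 2 were 18104 and 17288 CPM and the log2 difference was 0.81 ± 0.39. Mir22 had 10542 CPM in replicate 1 but 23322 CPM in replicate 2, with a log2 difference of 0.98 ± 0.47. All 3 differences were positive in both animals. CPM counts whole reads of mature length, so these comparisons are not divided by hairpin length.

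**Figure D3:**
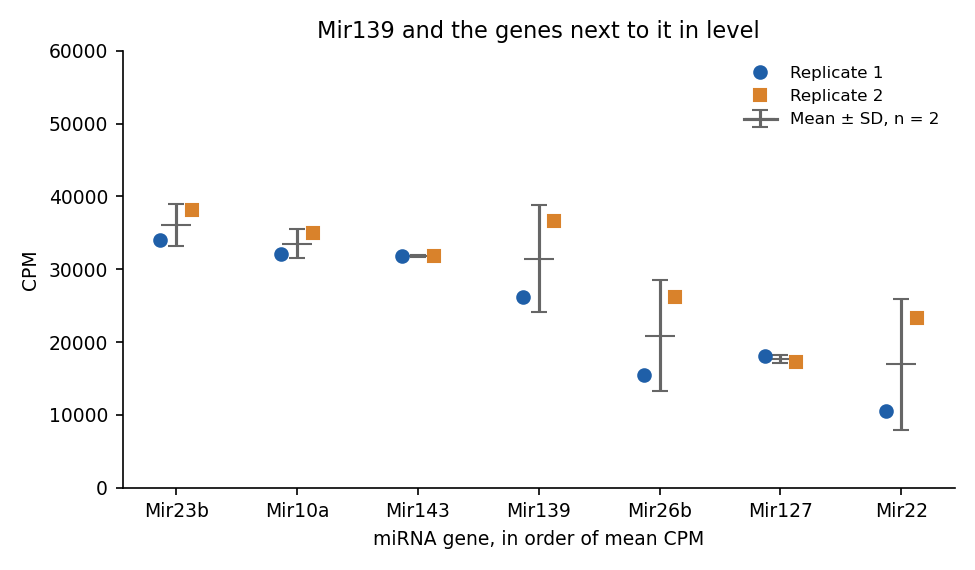
CPM (y axis) of Mir139 and of the 3 genes on each side of it by mean CPM (x axis); blue circles are replicate 1, orange squares replicate 2, and grey bars give the mean ± SD (n = 2). In replicate 1 Mir139 (26248 CPM) is below the 3 genes to its left, while in replicate 2 (36628 CPM) it is above Mir10a and Mir143.

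The genes whose levels were most like that of Mir139 over both libraries were mostly the same neighbours. Likeness was the Euclidean distance in log2(CPM + 1) over 2 libraries, among genes with 10 or more counts in mean. Mir10a was nearest at a distance of 0.30, followed by Mir143 at 0.34, Mir23b at 0.38, Mir23a at 0.57 and Mirlet7i at 0.80. Of these 5, Mir23b alone lies in an intron of a protein-coding gene of its strand, 2010111I01Rik. With 2 libraries this measure mostly ranks genes by level.

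Mir139 was lower in replicate 1 than in replicate 2. Its CPM in replicate 1 was 0.717 times that in replicate 2. After TMM scaling, which centres the bulk of genes, the log2 ratio of replicate 1 over replicate 2 was -0.28 with a counting SE of 0.0056. The two-sided exact binomial test called it lower in replicate 1, with a log10 Benjamini-Hochberg adjusted p of -553.6 over the 389 genes that averaged at least 10 counts. The test compares the reads of these libraries and not conditions. At this depth it called most genes: 230 of 389, or 59.1%, in either direction, and 28.3% lower in replicate 1, so a call alone says little about Mir139.

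Set against the other genes under TMM scaling, the size of the Mir139 difference was ordinary. Of the 389 tested genes 239 (61.4%) had a larger absolute log2 ratio than Mir139, and the median absolute ratio was 0.40. Many of these genes have few counts, where counting error adds to the ratio. Among the 20 genes with the highest mean CPM, 9 had a larger absolute ratio than Mir139, and the median was 0.27. These standings hold for TMM only. By total counts the ratio of Mir139 was -0.48, and a common shift of all ratios changes the order of their absolute values. A single dispersion for all genes, taken from both libraries together, put the coefficient of variation between the libraries at 0.361. With it, edgeR's exact test gave Mir139 an unadjusted p of 0.707 and an adjusted p of 1. That test called 4 of 389 genes, and 16 had an unadjusted p under 0.05. It sets 1 library against 1 and has no spread within either side. Its dispersion came from the same 2 libraries that it compares, so its p-values do not show whether the Mir139 difference was ordinary. Whether animals of this strain differ in Mir139 beyond their usual spread cannot be read from 2 of them. Each animal gave 1 library, so differences between animals and between library preparations cannot be told apart.

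**Figure D4:**
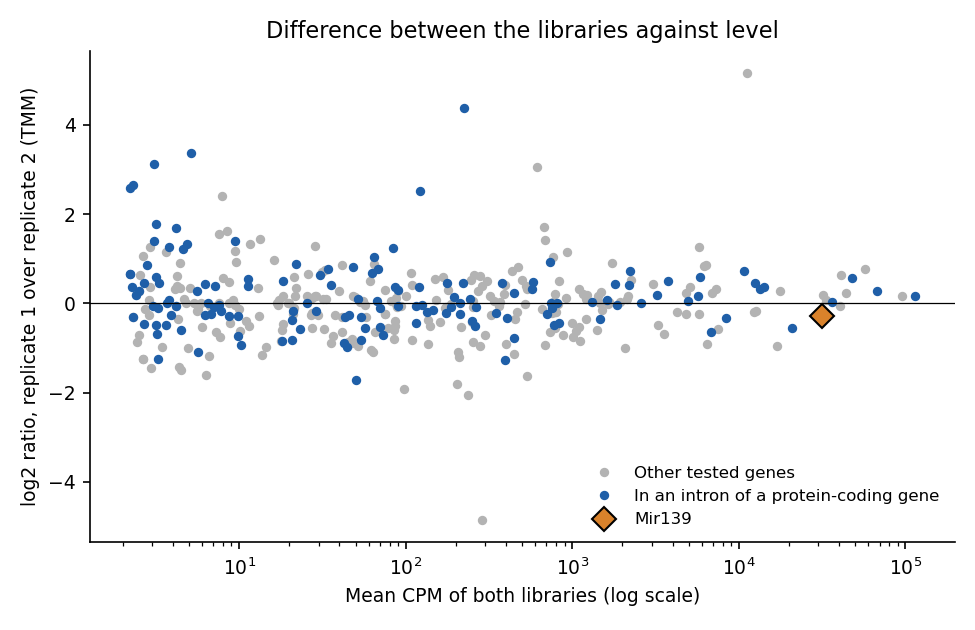
Log2 ratio of replicate 1 over replicate 2 after TMM scaling (y axis) against mean CPM (x axis, log scale) for the 389 tested genes; blue points lie in introns of protein-coding genes, grey points are the other tested genes and the orange diamond is Mir139. Mir139, at -0.28, lies inside the cloud and below 0, among the genes with the highest levels.

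The direction was the same under the 5 scalings run, but the size differed. Relative to total counts, TMM raised every log2 ratio by 0.20. The ratio of Mir139 was -0.29 with DESeq2 size factors, -0.35 per read sequenced, -0.45 per miRNA count without the erythroid genes and -0.48 per miRNA count. Among the 20 genes with the highest mean CPM, 14 were called higher in replicate 1 and 6 lower under TMM. Over all tested genes 30.8% were called higher in replicate 1 and 28.3% lower. Mir139 had the third lowest ratio of the 20, after Mir22 (-0.95) and Mir26b (-0.56). With DESeq2 size factors the split was the same, where 120 of all 389 tested genes were higher and 117 lower. By total counts 9 were higher, 10 lower and 1 neither, where 85 of all 389 were higher and 170 lower. Mir139, Mir26b and Mir22 were among the lower under each of these scalings.

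**Figure D5:**
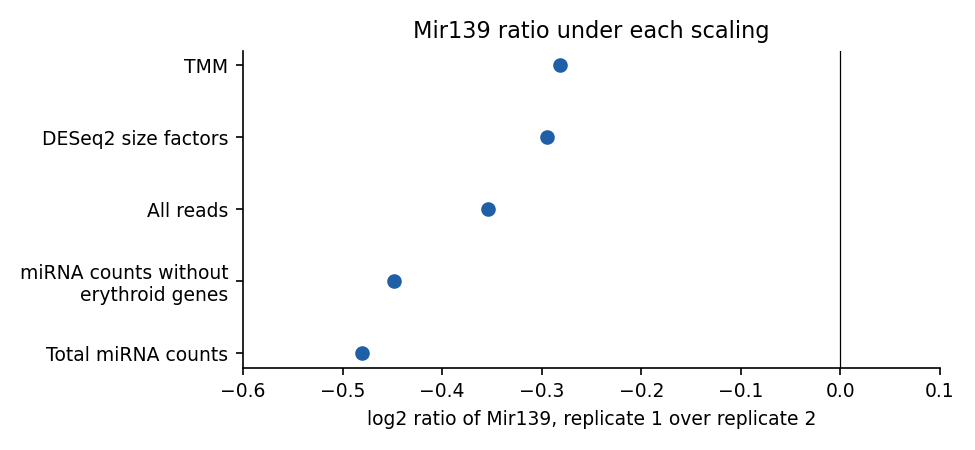
Log2 ratio of Mir139, replicate 1 over replicate 2 (x axis), under 5 scalings (y axis); the vertical line marks equal levels. All points lie left of the line, between -0.48 for total miRNA counts and -0.28 for TMM.

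Markers of other cell types differed between the libraries too, and their part in the Mir139 difference was not tested. In whole tissue, fewer cells of a type and less RNA per cell cannot be told apart. Red blood cell genes differed by the largest factor among the lists examined. The 3 erythroid genes, all detected, came to 22813 CPM together in replicate 1, against 901 CPM in replicate 2. Mir451a, the leading one, ranked 13 in replicate 1, just below Mir139, and 95 in replicate 2, so it did not set the rank of Mir139 in either. Leaving the erythroid genes out of the total changed the share of Mir139 to 3.18% ± 0.693 (SD, n = 2).

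Pde2a is also known from endothelium and brain. Of the 2 endothelial genes 1 was detected, and the list's sum was 69154 CPM (replicate 1) and 65135 CPM (replicate 2), nearly all from Mir126a. The neuronal list had 6 of 14 genes detected and summed to 599 and 793 CPM in replicates 1 and 2. Its defining members Mir124a-1, Mir124a-2, Mir124a-3, Mir9-1 and Mir9-2 had 0 counts in both libraries, and Mir9-3 had 3 counts in replicate 1 and 0 in replicate 2, although those with identical copies lose reads that aligned to several places. Mir139 exceeded Mir137, the leading neuronal gene, 64.9-fold in replicate 1 and 69.1-fold in replicate 2.

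Lists for the endocrine cells of the gland lay on both sides of Mir139. The steroid-tissue list, with 10 of 11 genes detected, held 3576 CPM (replicate 1) and 5227 CPM (replicate 2) in sum. Mir139 alone exceeded Mir132, its leading gene by mean, 18.5-fold in replicate 1 and 25.3-fold in replicate 2. The neuroendocrine list, with all 9 genes detected, summed to 73321 and 52039 CPM in replicates 1 and 2 and rested on Mir375, which Mir139 did not reach in either library (0.382 and 0.792 times its CPM in replicates 1 and 2). Smooth muscle and mesenchymal genes (5 of 6 detected) summed to 33519 and 34841 CPM in replicates 1 and 2. Nearly all of this came from Mir143, at 31774 and 31884 CPM. White blood cell genes (5 of 5) summed to 2956 and 3251 CPM in the same order. The steroid-tissue list shares members with the neuroendocrine list and with the smooth muscle and mesenchymal list, so these sums are not separate. These lists also hold genes whose product has an identical copy. Such genes lose reads that aligned to several places, so the sums can be too low. No miRNA that would define the adrenal gland by itself was on these lists, so they check the tissue label only in part.

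Among miRNA genes in introns of protein-coding genes of their strand, Mir139 ranked 5 of 741 in both libraries. It supplied 6.07% of their counts in replicate 1 and 8.28% in replicate 2, while the whole set held 43.2% and 44.2% of the miRNA counts. Of the 741 genes 131 were detected and 141 tested. Above Mir139 stood Mirlet7g in Wdr82, Mir126a, Mir378a in Ppargc1b, a gene of mitochondrial control, and Mir23b. Mir126a enters the set through an overlapping locus, Gm20532, and overlaps an exon of the endothelial gene Egfl7. Without genes that overlap any protein-coding exon of their strand, a rule added after the values were seen, Mir139 ranked 4 of 733.

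Below it followed Mir26b, Mir10b in Hoxd3 and Hoxd4, Mir652 in Tmem164, Mirlet7e in Spaca6 and Mir151 in the kinase gene Ptk2. These 10 leading intronic genes made up 36.7% of all miRNA counts of replicate 1, against 37.1% of those of replicate 2. Under TMM 8 of them were called higher in replicate 1, and Mir139 and Mir26b were called lower, where 30.8% of all tested genes were higher and 28.3% lower. With the total as scale 6 were higher and 4 lower, Mirlet7g and Mir23b having joined the lower ones, where 85 of all 389 tested genes were higher and 170 lower. Mir23b passed the exact binomial test under TMM at a log2 ratio of 0.03.

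The intronic set was called about as often as all tested genes. Of its 141 tested genes 49 were called higher in replicate 1, 33 lower and 59 neither, which is 58.2% called against 59.1% of all tested genes. The median log2 ratio was 0.02 in the set and 0.01 over all tested genes. By total counts 35 were higher and 55 lower, with a median of -0.18 in the set and -0.19 over all tested genes. The ratio of Mir139 was thus lower than the median of the set under both scalings.

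On chromosome 7 Mir139 was the leading miRNA gene by far. It ranked 1 of 153 genes in both libraries and held 86.1% of the chromosome's miRNA counts in replicate 1 and 89.8% in replicate 2. The next, Mir708 in an intron of the teneurin gene Tenm4, had 1246 and 1392 CPM in replicates 1 and 2, and Mir139 exceeded it 21.1-fold and 26.3-fold there. The chromosome had 23 tested genes, of which 5 were called higher in replicate 1 and 7 lower. That is 52.2% called and 30.4% called lower, near the 59.1% and 28.3% of all tested genes. Scaling to total counts turned this into 4 higher and 10 lower, where 85 of all 389 tested genes were higher and 170 lower.

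Within 5 Mb of Mir139 lie 7 other miRNA genes, and 2 of them were detected. Mir326 in Arrb1, which encodes a beta-arrestin, is 1923 kb upstream and gave 64.0 CPM in replicate 1, against 70.8 CPM in replicate 2. Its log2 ratio was 0.05 and did not pass the exact binomial test (adjusted p = 0.764). Mir3102, 593 kb upstream on the minus strand, had 276 CPM in replicate 1, against 378 CPM in replicate 2, with a log2 ratio of -0.25 ± 0.05 (counting SE; adjusted p = 9.8e-06 by the exact binomial test). The other 5, all named only by a gene model number, had 0 counts in both libraries. The upper limit for a count of 0, set at 3 counts, was 0.522 CPM (replicate 1) and 0.900 CPM (replicate 2).

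Mir3102 was also the gene with the ratio nearest to that of Mir139 among 143 other genes with 1000 or more counts in mean. Next came Mir21a (-0.25), a miRNA known from growth and, in human adrenocortical cells, from treatment with angiotensin, and Mir411 (-0.24), of the Dlk1-Dio3 region. Mir106b (-0.24), in an intron of the replication gene Mcm7, and Mir744 (-0.32), in an intron of the kinase gene Map2k4, completed the nearest 5. All 5 were called lower in replicate 1 by the exact binomial test under TMM, DESeq2 and total-count scaling. This follows from how they were chosen, since the other scalings shift every ratio further down by the same amount. Their levels differed widely, from 276 CPM in replicate 1 and 378 CPM in replicate 2 for Mir3102 to 6871 and 9864 CPM in these libraries for Mir744, all below Mir139.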

How the data were processed

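Whole-number counts of reads per miRNA gene were deposited by the authors for 2 adrenal libraries. The assembly is mm10 and the annotation GENCODE M21, per the text files deposited with each library. Aligner, trimming and counter are not given in the sources. The count columns have no header. The one with the larger of the stranded totals in both libraries was taken as the gene's strand and used. Rows that name no gene held 66.2% of reads in replicate 1 and 69.0% in replicate 2 and stayed out of library sizes and tests. CPM were counts over the total at miRNA genes times 1e6, and 2 CPM in both libraries counted as detected. With 1 group, edgeR's quasi-likelihood test was not possible. Counts of the libraries were compared by an exact binomial test (two-sided, TMM library sizes) for every gene averaging at least 10 counts, Benjamini-Hochberg adjusted at 0.05. Log2 ratios had 0.5 counts added. Its p-values set the difference between these libraries against counting error only and hold no estimate of the spread between animals.

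Mir139, the gene lists and the tests were chosen with earlier results of these data known. Named genes were Mir139, the 3 genes on each side by mean CPM, the 5 nearest in level and the 5 nearest in log2 ratio, the 10 leading intronic genes, genes within 5 Mb, genes sharing a seed and up to 2 members of each of 8 lists; Mir124a and Mir9 genes were named in addition as defining markers, and Mir22, Mir26b, Mirlet7d and Mirlet7g for their order. The exact test was tested on simulated counts with built-in changes and counting noise alone. That simulation held no other spread between libraries, so it does not cover such spread in these data. Python 3.11.15, SciPy 1.17.1, pandas 2.3.3, NumPy 2.4.6, RNAfold 2.7.2, R 4.3.3, edgeR 4.0.16, DESeq2 1.42.0 and matplotlib 3.10.9 were used.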

Additional observations from a re-analysis of the deposited data

How the results depend on the processing

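The Mir139 share of 3.14% became 1.01% of all reads and 7.43% of the miRNA counts without the 10 leading genes, both by construction of the denominator. The 5 other alternatives stayed within 1 SD. For those that left out 1 library this was fixed in advance, since each of 2 values lies within 1 SD of their mean. Its rank of 12 lay between 9 and 12 when either library was left out (9 without replicate 1) and was 10 with unstranded counts. The log2 ratio was negative under all 9 alternatives, from -0.48 to -0.28, and past the exact binomial test under 8 of them. Of these 9, a larger pseudocount and edgeR's common dispersion could barely move the ratio of a gene with so many counts. With edgeR's common dispersion the ratio was -0.28 with an adjusted p of 1, and the count of called genes was 4 in place of 230. That dispersion was set by the same 2 libraries that the test compared. Other alternatives gave 200 to 255 called genes, with 85 higher and 170 lower by total counts, against 120 and 110 under TMM. The median ratio of intronic genes turned from 0.02 to -0.18 by total counts, as did that of all genes. The separation from 3 of 6 neighbours was the same with unstranded counts, an alternative chosen after seeing the data. No paired analysis was possible because there is 1 group. The counting SE of the Mir139 ratio was 0.0056 on the log2 scale, small beside the ratio of -0.28. It holds no spread between animals or between library preparations, which these 2 libraries cannot tell apart.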
